A study of Homo sapiens with 30 samples.

Results

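The genes described here encode the proteins of the cytosolic ribosome, the machine that translates messenger RNA in the cytoplasm. They were taken by symbol from a table of 27630 genes, as RPL or RPS followed by a number with the usual suffix letters, together with RPLP0, RPLP1, RPLP2 and RPSA. This gave 86 genes, 52 of the large subunit and 34 of the small subunit. Of these, 77 were canonical ribosomal protein genes and 9 were rows of paralogues such as RPL39L and RPS27L. The rule used no measured value. A further 4 genes, among them FAU, RACK1 and RPL36AL, also encode proteins of the ribosome or bound to it, fell outside the rule and are given separately near the end.

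The RNA came from 8 libraries of the transformed human embryonic kidney cell line HEK293FT. The cells behind each of them were asynchronous and, per the labels, had been transfected using Lipofectamine with a construct of the peroxidase APEX2 and lamin B1, which places the peroxidase at the nuclear lamina, the protein layer under the inner nuclear membrane. The 4 groups held 2 libraries each: a nuclear fraction, a cytosolic fraction, RNA recovered at the lamina from native material, and RNA recovered at the lamina after fixation with paraformaldehyde (PFA). No library of cells without the construct was analysed here, so the 2 fractions were the only reference, and a transient transfection leaves some cells without the construct. Libraries of ribosome-depleted total RNA were made, and the values used here are reads on exons per gene.

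Each cytosolic ribosome joins a small subunit, which holds the decoding centre, to a large subunit, which forms peptide bonds. Its proteins are made in the cytoplasm, return to the nucleus and are assembled with ribosomal RNA in the nucleolus, while their own messenger RNAs are exported and translated like others. Most of these messenger RNAs begin with a terminal oligopyrimidine (TOP) tract, a C followed by a run of pyrimidines, through which growth signals regulate their translation, and many of the genes carry small nucleolar RNAs (snoRNAs) in their introns.

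The start of the transcript is shown for the members on which the results below turn, because the TOP tract is the sequence that the family shares and that the choice by symbol did not use. Each line gives 10 bases before and 20 bases from the annotated start, read from RefSeq on GRCh38.p14, with the tract in capitals. For a gene with several annotated starts, the start with the longest tract is shown. RPL11 and RPL38 were among the members highest in the cytosolic over the nuclear fraction, RPLP2, RPS6, RPS14 and RPS24 belong to the groups followed below, RPL35 and RPS21 were called at the native lamina, and RPL21 and RPL36A were on the nuclear side.
RPL11: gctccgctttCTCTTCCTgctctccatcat
RPL38: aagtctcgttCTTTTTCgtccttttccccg
RPLP2: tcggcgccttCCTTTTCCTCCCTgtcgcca
RPS6: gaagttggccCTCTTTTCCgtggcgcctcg
RPS14: ccctcccactCTCTCTTTCCggtgtggagt
RPS24: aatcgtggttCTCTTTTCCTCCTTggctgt
RPL35: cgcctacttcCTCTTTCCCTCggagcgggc
RPS21: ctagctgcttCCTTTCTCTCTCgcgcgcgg
RPL21: ccgcctctttCCTTTCggccggaaccgcca
RPL36A: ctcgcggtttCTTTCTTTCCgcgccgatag
RPL4 and the paralogues RPS27L, RPL7L1 and RPL26L1 had no such tract at the annotated start, and their windows are in lower case throughout. The RPL4 window holds a pyrimidine run, cttccttttcct, a few bases after the annotated start, which was not counted.
RPL4: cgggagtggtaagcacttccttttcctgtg
RPS27L: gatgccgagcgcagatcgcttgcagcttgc
RPL7L1: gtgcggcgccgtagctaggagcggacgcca
RPL26L1: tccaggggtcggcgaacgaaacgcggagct
The RPL11 window lies at chr1:23691796-23691825 on the plus strand, RPS6 at chr9:19380217-19380246 on the minus strand, RPL36A at chrX:101391001-101391030 on the plus strand and RPL4 at chr15:66504836-66504865 on the minus strand, all GRCh38.p14. A tract was counted where a C at the start was followed by at least 4 pyrimidines, on the transcribed strand only. A gene with several annotated starts was counted where any of them had a tract. It was found in 48 of 69 members with a matched start (69.6%), against 1404 of all 27305 genes with an annotated start in RefSeq (5.14%). By subunit the tract was found in 29 of 42 large and 19 of 27 small members with a matched start, and 2 of 7 paralogue rows had one. A tract that is not at an annotated start was not searched for elsewhere.

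The libraries held 2321291 to 8557777 counts, with PFA lamina replicate 2 the shallowest. Of the 86 members, 82 passed the filter on low counts and were tested, 67 of them with at least 50 counts in every library. Levels are TMM-scaled CPM, that is counts divided by the scaled size of the library, and changes are log2 fold changes from edgeR's quasi-likelihood test, where a call means an adjusted p under 0.05 over all 16504 genes tested. Of the nuclear RNAs MALAT1, NEAT1, KCNQ1OT1 and MEG3, the last of which was near 0 throughout, the summed level was 13761 and 22811 CPM in the nuclear pair, 970.0 and 1297 in the cytosolic pair, 6343 and 13569 in the native lamina pair and 712 and 4106 in the PFA lamina pair. The sum of GAPDH, ACTB and EEF1A1, messenger RNAs of the cytosol, was 813 and 1341, 4744 and 8056, 2047 and 2055 and 2538 and 1549 CPM in the same order. The part of either list in the results was not tested. On the nuclear RNA list PFA lamina replicate 1 lay below both cytosolic libraries and PFA lamina replicate 2 above them, and results on the PFA lamina are given with and without each library. Of the kidney-line markers, SALL1 had 24.0 to 68.5 CPM per library, LHX1 2.54 to 8.55, EYA1 2.75 to 10.3 and PAX2 0 to 6.25. Of 6 markers of other cell types, PTPRC, CD3E and COL1A2 had no count in any library, COL1A1 had 9.24 to 34.6 CPM, ALB 0 to 1.47 and PECAM1 0 to 0.554.

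Members took a larger share of all counts in the cytosolic fraction than anywhere else. They made up 0.557 and 0.768% of the counts in the nuclear libraries, a mean of 0.662 ± 0.149% (SD, n = 2). The cytosolic libraries gave 2.28 and 2.63% (2.46 ± 0.250%), the native lamina 1.14 and 1.03% (1.09 ± 0.0807%) and the PFA lamina 1.46 and 1.24% (1.35 ± 0.162%). The 4 pairs of libraries did not overlap, so the order of these unscaled shares was nuclear, native lamina, PFA lamina, cytosolic. An exact permutation test of 2 against 2 libraries, however, cannot go below p = 0.333. Both subunits kept that order: members of the large subunit took 64.9 and 64.4% of the members' counts in the nuclear pair, 61.7 and 62.7% in the cytosolic pair, 66.1 and 69.2% in the native lamina pair and 62.3 and 63.1% in the PFA lamina pair. These are shares of a library, so fewer copies of these RNAs and more of other RNAs cannot be told apart. They were not TMM-scaled. With that scaling the median log2 fold change of members at the native lamina over the nuclear fraction was 0.02. The native mean was then below the nuclear mean for 38 of 82 members, so the order of these 2 groups depends on the scaling.

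**Figure D1:**
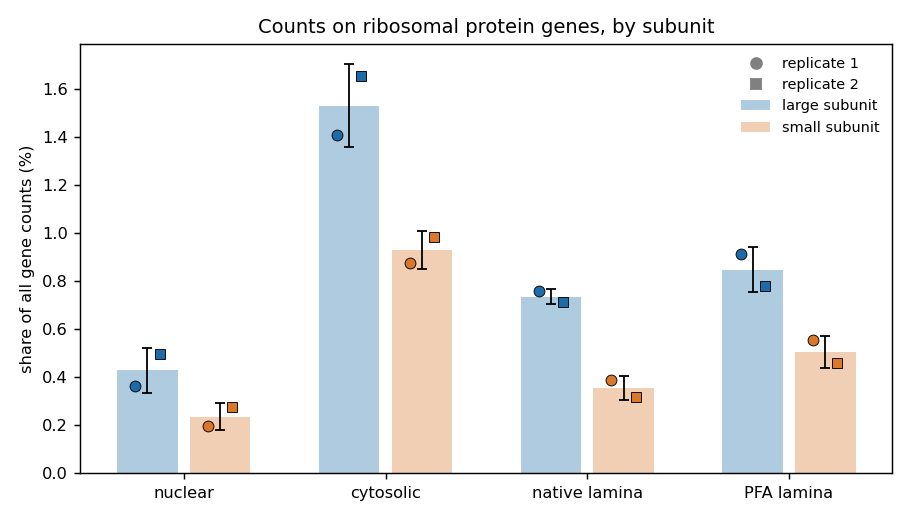
Share of all gene counts (%, vertical axis) on large-subunit (blue) and small-subunit (orange) members in the 4 groups. Points are single libraries, circles for replicate 1 and squares for replicate 2, and bars with lines are the mean and SD of 2 libraries. Both subunits are highest in the cytosolic libraries and lowest in the nuclear libraries.

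Levels of the members differed widely from each other. Per kilobase of exon (TMM-scaled RPKM), the median member had 71.6 in the nuclear group, 252 in the cytosolic group, 80.6 in the native lamina group and 111 in the PFA lamina group. RPS4X, a small-subunit protein encoded on the X chromosome, was the highest in the cytosolic fraction at 1635 ± 390.3 RPKM (SD, n = 2), followed by RPL38, RPL11, RPL8 and RPL37A. RPL37A led in the nuclear fraction at 353 ± 120.0, ahead of RPS4X, RPLP1, RPL11 and RPL38. RPL4 led at the native lamina at 532 ± 52.7, with RPL19, RPL35 and RPL8 also among the 5 highest. RPL8 led at the PFA lamina at 722 ± 159, ahead of RPS4X, RPL11, RPL37A and RPLP1. In the nuclear, cytosolic and PFA lamina groups the gap between the first and the second of these members was smaller than the sum of their SDs. At the low end, RPL3L was the lowest tested member in all 4 groups, with 2.14 ± 0.150 RPKM in the nuclear group and 0.393 ± 0.556 in the cytosolic group. RPL22L1 and RPS26 were also among the 5 lowest in each group, joined by RPL39L and RPS27L in the nuclear and native lamina groups and by RPL36A and RPS28 in the cytosolic and PFA lamina groups.

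By group mean, the cytosolic fraction was the highest of the 4 groups for 76 of 82 members. The nuclear fraction was the lowest for 42 members and the native lamina for 31. The PFA lamina lay between the nuclear and cytosolic fractions for 71 members and the native lamina for 48. The most frequent order, nuclear, native lamina, PFA lamina, cytosolic from low to high, held for 27 members, and the order with native lamina below nuclear held for 26. Replicates moved as blocks of members: nuclear replicate 2 was above replicate 1 for 79 of 82 members, by a median of 0.66 on the log2 scale, and cytosolic replicate 2 was above replicate 1 by 0.51 (78 of 82). At the lamina the second replicate was the lower one, with a median of -0.26 for the native and -0.60 for the PFA preparation. The map of all members by library shows these block shifts as whole columns of one shade.

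**Figure D2:**
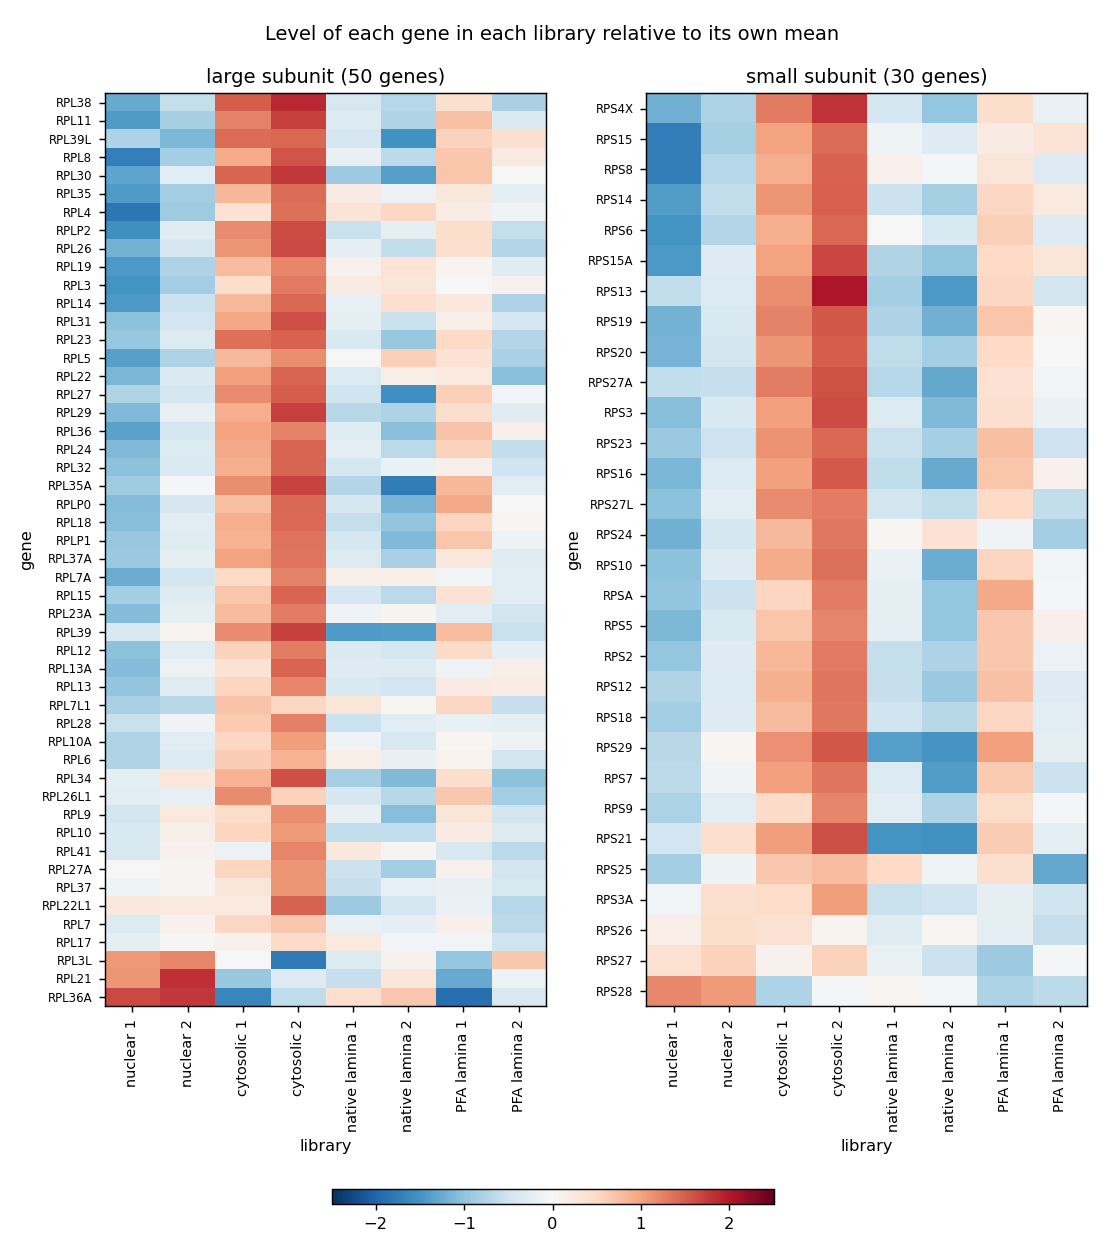
Level of 80 of 82 tested members (rows, large subunit left, small subunit right, ordered by the cytosolic to nuclear change) in each of 8 libraries (columns), as log2(CPM + 0.5) minus the gene's mean over the libraries (red above, blue below). The cytosolic columns are red for nearly all rows, while RPL36A, RPL21, RPL3L and RPS28 at the bottom are red in the nuclear columns.

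The comparison of the cytosolic with the nuclear fraction asks where the messenger RNAs of this family lie in the cell. Of 82 members, 68 were higher in the cytosolic fraction, where 21.2% of all genes tested were called higher, and 3 were lower, where 26.1% of all genes were. The median log2 fold change of the members was 1.77, against -0.13 for all genes tested. In the large subunit 41 of 51 were higher with a median of 1.72, and in the small subunit 27 of 31 with a median of 1.87. Cytosolic libraries lay wholly above nuclear libraries for 74 members, which was the case for 35.4% of all genes. The count of members called higher ran from 48 to 72 when 1 library was left out, and 48 was the count without nuclear replicate 1.

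Among the proteins of the stalk, the flexible arm of the large subunit that recruits translation factors, all 4 members were higher in the cytosolic fraction. RPLP2 stood at 54.3 and 128 CPM in the nuclear pair, 361 and 491 in the cytosolic pair, 108 and 133 in the native lamina pair and 215 and 105 in the PFA lamina pair. Its cytosolic libraries were above the 6 others, nuclear replicate 1 was the lowest, and each lamina pair had a library above and a library below nuclear replicate 2. The change of RPLP2 was 2.23 ± 0.43 (SE, adjusted p = 0.00187 by edgeR), that of RPLP0 1.85, that of RPLP1 1.73 and that of RPL12, which forms the stalk base with RPLP0, 1.57. Without nuclear replicate 1 the call of RPL12 was lost at 1.23.

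RPL5 and RPL11 carry the 5S ribosomal RNA into the large subunit and can also bind the p53 regulator MDM2. RPL11 stood at 119 and 179 CPM in the nuclear pair, 754 and 1039 in the cytosolic pair, 251 and 188 in the native lamina pair and 532 and 247 in the PFA lamina pair. Both cytosolic libraries of RPL11 were above the 6 others, and both nuclear libraries were below both lamina pairs. Its change of 2.59 ± 0.41 (SE, adjusted p = 0.000819 by edgeR) was the second largest among the called members, after RPL38, a small protein of the large subunit, with 2.60 ± 0.40 (SE, adjusted p = 0.000801 by edgeR). RPL5 had 105 and 158 CPM in the nuclear and 471 and 601 in the cytosolic libraries, a change of 2.03 ± 0.41 (SE, adjusted p = 0.00209 by edgeR).

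In the body of the large subunit, RPL3 and RPL4, both proteins that reach deep into the core of ribosomal RNA, were higher in the cytosolic fraction by 2.08 and 2.24. RPL10, which completes the large subunit late in its maturation, changed by 0.93 and RPL10A by 1.30. RPL13A, RPL23A, RPL35A and RPL39 were higher by 1.56, 1.66, 1.86 and 1.62. RPL23A and RPL39 sit at the exit of the tunnel through which the new protein leaves. RPL41, the smallest ribosomal protein, stood at 11.2 and 16.1 CPM in the nuclear and 13.5 and 35.7 in the cytosolic libraries, which overlapped, and was not called (0.84 ± 0.43, SE, adjusted p = 0.122 by edgeR). RPL17 was not called either, at 34.9 and 42.1 and 44.1 and 57.7 CPM (0.40 ± 0.29, SE, adjusted p = 0.269 by edgeR), and it shares exons with the read-through row RPL17-C18orf32. Without nuclear replicate 1 the calls of RPL10 (0.69), RPL10A (1.08), RPL13A (1.17), RPL35A (1.5) and RPL39 (1.39) were lost. With upper-quartile factors RPL10 was not called (0.66). Without cytosolic replicate 2 those of RPL10 (0.66) and RPL13A (0.93) were lost.

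In the small subunit, RPS4X changed by 2.56 ± 0.37 (SE, adjusted p = 0.000690 by edgeR). RPS6 was measured at 89.8 and 154 CPM in the nuclear pair, 481 and 688 in the cytosolic pair, 255 and 194 in the native lamina pair and 388 and 203 in the PFA lamina pair. RPS6 is the protein phosphorylated by S6 kinase downstream of mTOR. Its cytosolic libraries were above all 6 others and its nuclear libraries were the lowest, with a change of 2.26 ± 0.39 (SE, adjusted p = 0.00119 by edgeR). RPS2 and RPS3, which lie at the channel where messenger RNA enters, changed by 1.70 and 2.04, and RPSA, also known as the laminin receptor precursor, by 1.72. RPS14, RPS19 and RPS24, all mutated or lost in inherited or acquired anaemias, changed by 2.28, 2.14 and 1.87. RPS27A, made as a fusion with ubiquitin, changed by 2.05 and RPS29 by 1.63. Of 31 tested small-subunit members, 27 were called higher. RPS26, RPS27 and RPS3A were not called, and RPS28 was called lower. RPS26 stood at 4.05 and 4.98 CPM in the nuclear and 4.81 and 3.81 in the cytosolic libraries, and RPS27 at 12.9 and 14.9 and 10.7 and 14.8. The groups overlapped in both genes, with changes of -0.06 ± 0.54 (SE, adjusted p = 0.940 by edgeR) and -0.13 ± 0.41 (SE, adjusted p = 0.805 by edgeR). Without nuclear replicate 1 the calls of RPS29 (1.31) and RPSA (1.51) were lost.

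The 3 members called lower in the cytosolic fraction were RPL36A, RPL21 and RPS28. RPL36A stood at 72.2 and 78.0 CPM in the nuclear pair, 6.95 and 14.4 in the cytosolic pair, 30.5 and 36.2 in the native lamina pair and 5.73 and 17.3 in the PFA lamina pair. The nuclear libraries were the highest and the native lamina came second, while the cytosolic and PFA lamina libraries overlapped at the bottom. RPL36A was 7.16-fold lower in the cytosolic fraction (log2 fold change -2.84 ± 0.45, SE, adjusted p = 0.000857 by edgeR). RPL21 had 14.3 and 24.2 CPM in the nuclear pair, 3.08 and 5.07 in the cytosolic pair, 4.16 and 7.96 in the native lamina pair and 2.40 and 5.89 in the PFA lamina pair, so both nuclear libraries were above the 6 others. The change of RPL21 was -2.26 ± 0.54 (SE, adjusted p = 0.00507 by edgeR), and that of RPS28, at 6.69 and 6.01 CPM in the nuclear and 1.34 and 2.54 in the cytosolic libraries, was -1.74 ± 0.61 (SE, adjusted p = 0.0310 by edgeR). RPS28 rests on 10 counts in cytosolic replicate 1. Its call was lost without either nuclear library, without cytosolic replicate 1 (-1.30) and without either native library, and in the DESeq2 Wald test. That of RPL21 was lost without nuclear replicate 2 (-1.81) or cytosolic replicate 1 (-1.90), and 1 member was left lower without nuclear replicate 2.

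RPL36A lies at chrX:100645878-100651142 (hg19, plus strand) and shares exons with the read-through row RPL36A-HNRNPH2, and RPL21 at chr13:27825692-27830702 (hg19, plus strand) overlaps RPL21P28 and carries SNORA27 and SNORD102. RPL21 has 137 pseudogenes named for it in RefSeq, the most of any member, RPL36A has 52, and RPS28 has 9 and no overlapping row. The counting took each read for every gene it overlaps and left out reads with several alignments, so a gene with many near-identical copies is uncertain in level. The part of this in the changes was not tested. RPL10L, RPS4Y1 and RPS4Y2 were among the 4 members with no count in any library, which allows up to 3 counts, or 0.351 to 1.29 CPM before TMM scaling.

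Of the 6 tested paralogue rows, all but RPL7L1 had a lower mean per kilobase than the canonical gene in the cytosolic fraction. RPL7L1 stood at 47.0 ± 4.59 RPKM beside 26.4 ± 1.92 for RPL7 (SD, n = 2), which has 61 named pseudogenes. RPL39L stood at 16.4 ± 0.290 beside 171 ± 42.9 for RPL39, RPL26L1 at 15.8 ± 4.83 beside 403 ± 107 for RPL26, and RPL22L1 at 6.99 ± 4.11 beside 65.3 ± 13.2 for RPL22. RPS27L, which is known as a p53 target, stood at 13.4 ± 0.636 beside 21.6 ± 4.91 for RPS27, and RPL3L, a form of RPL3 made in striated muscle, at 0.393 ± 0.556 beside 542 ± 222 for RPL3. The low rows changed in different ways. RPL39L had 2.33 and 1.72 CPM in the nuclear and 12.2 and 12.5 in the cytosolic libraries and was the third largest change among the called members (2.59 ± 0.55, SE, adjusted p = 0.00291 by edgeR). RPS27L and RPL7L1 were higher in the cytosolic fraction by 1.96 and 1.36, and both calls were lost without nuclear replicate 1, at 1.59 and 1.31. RPL22L1 (0.75 ± 0.49, SE, adjusted p = 0.215 by edgeR) and RPL26L1 (1.22 ± 0.50, SE, adjusted p = 0.0572 by edgeR) were not called, while RPL22 and RPL26 were higher by 1.96 and 2.16. RPL3L, with 3.11 and 3.44 CPM in the nuclear and 1.20 and 0 in the cytosolic libraries, was not called.

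**Figure D3:**
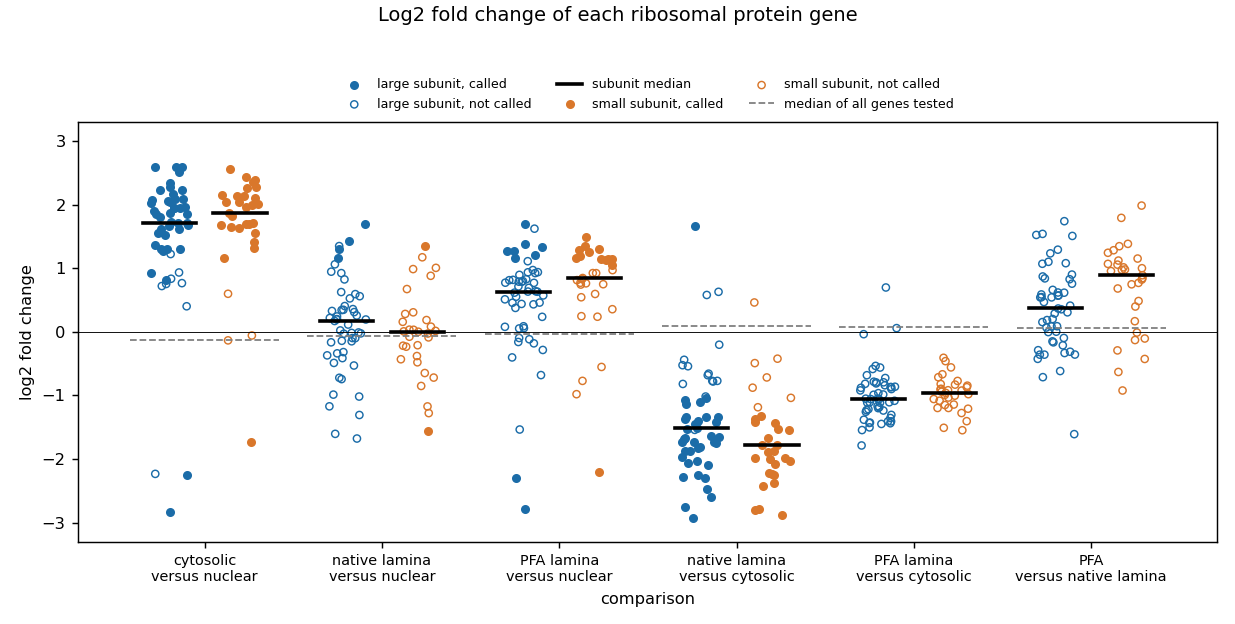
Log2 fold change (vertical axis) of each tested member in the 6 comparisons (horizontal axis), large subunit in blue and small subunit in orange. Filled points passed an edgeR adjusted p of 0.05, open points did not, black bars are subunit medians and dashed lines the median of all genes tested. In the cytosolic over nuclear column most points are filled and positive (68 of 82), and in the 2 columns PFA over cytosolic and PFA over native none is filled.

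At the native lamina the family as a whole stood at about the nuclear level, with single members on either side. Of 82 members, 5 were higher than in the nuclear fraction (all genes, 3.87%) and 1 was lower (all genes, 3.44%). The median change was 0.02, against -0.07 over all genes, and it moved from -0.27 to 0.41 as 1 library was left out. Between single libraries the medians were 0.58 and -0.09 for native replicate 1 over nuclear replicates 1 and 2, and 0.18 and -0.39 for native replicate 2. The values were positive against nuclear replicate 1 and negative against nuclear replicate 2. The sign also differed with the scaling, at -0.12 with upper-quartile factors and 0.32 with total counts, while the median of all genes was -0.22 and 0.22.

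The 5 members called higher at the native lamina included RPL4, RPL3, RPL19 and RPL35. RPL4 was at 165 and 309 CPM in the nuclear pair, 741 and 1492 in the cytosolic pair, 713 and 821 in the native lamina pair and 655 and 541 in the PFA lamina pair. Both native libraries lay above both nuclear ones, and native replicate 2 was also above cytosolic replicate 1. The change of RPL4 was 1.70 ± 0.41 (SE, adjusted p = 0.0304 by edgeR). RPL3 stood at 134 and 208 CPM in the nuclear pair, 515 and 936 in the cytosolic pair, 445 and 474 in the native lamina pair and 381 and 412 in the PFA lamina pair. The native libraries of RPL3 were above the nuclear pair, below the cytosolic pair and above both PFA libraries, with a change over the nuclear fraction of 1.42 ± 0.35 (SE, adjusted p = 0.0336 by edgeR). RPL19 had 414 and 487 CPM at the native lamina against 141 and 224 in the nuclear libraries (1.31 ± 0.34, SE, adjusted p = 0.0378 by edgeR), and RPL35 had 203 and 159.9 against 65.5 and 96.2 (1.17 ± 0.33, SE, adjusted p = 0.0499 by edgeR).

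RPS21 was the member called lower at the native lamina. RPS21 stood at 45.0 and 84.4 CPM in the nuclear pair, 131 and 192 in the cytosolic pair, 22.1 and 21.8 in the native lamina pair and 97.8 and 53.7 in the PFA lamina pair. The native libraries were below all 6 others, and the change from the nuclear fraction was -1.56 ± 0.37 (SE, adjusted p = 0.0310 by edgeR). RPL21 (-1.68) and RPL3L (-1.60) had larger changes without a call. In RPL39 and RPS29 both native libraries were likewise below the 6 others, without a call. RPL39 had 9.36 and 9.43 CPM at the native lamina against 19.3 and 27.3 in the nuclear libraries (-1.31 ± 0.40, SE, adjusted p = 0.0633 by edgeR). RPS29 had 18.4 and 17.1 against 29.9 and 50.3 (-1.17 ± 0.40, SE, adjusted p = 0.0794 by edgeR). Over all members, both native libraries were above both nuclear ones for 19 (all genes, 28.2%) and below them for 18 (all genes, 35.1%). No member was called in this comparison without nuclear replicate 1, nuclear replicate 2, native lamina replicate 1 or native lamina replicate 2, each in turn. Without those libraries RPL4 stood at 1.31, 2.24, 1.81 and 1.61, and RPS21 at -1.94, -1.02, -1.55 and -1.53. The members' median was 0.03 without cytosolic replicate 1 (all genes, -0.08) and 0.03 without cytosolic replicate 2 (all genes, -0.09). It was 0.05 without PFA lamina replicate 1 (all genes, -0.08) and 0.03 without PFA lamina replicate 2 (all genes, -0.09).

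Against the cytosolic fraction, the native lamina had lower levels of most members. Of 82 members, 60 were lower (all genes, 6.77%) and 1 was higher (all genes, 6.99%), with a median of -1.59 against 0.10 over all genes. Both subunits took part, with 36 of 51 large-subunit members lower (median -1.51) and 24 of 31 small-subunit members (median -1.79). Both native libraries lay below both cytosolic ones for 75 members (all genes, 28.4%). The largest decreases were those of RPL39 (-2.93 ± 0.41, SE, adjusted p = 0.00427 by edgeR), RPS21 (-2.88 ± 0.39, SE, adjusted p = 0.00427 by edgeR) and RPS29 (-2.81 ± 0.41, SE, adjusted p = 0.00439 by edgeR). In each of these genes both native libraries lay below both cytosolic ones, at 9.36 and 9.43 against 59.0 and 84.4 CPM for RPL39. RPL36A was the member called higher (1.67 ± 0.44, SE, adjusted p = 0.0270 by edgeR), a call lost without cytosolic replicate 1 (1.21), cytosolic replicate 2 (2.25) or native lamina replicate 2 (1.53). RPL4 (-0.54 ± 0.39, SE, adjusted p = 0.366 by edgeR) and RPL3 (-0.66 ± 0.35, SE, adjusted p = 0.210 by edgeR), which were called against the nuclear fraction, were not called against the cytosolic one. The number lower fell to 35 without cytosolic replicate 1, 8 without cytosolic replicate 2 and 12 without native lamina replicate 2.

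At the PFA lamina part of the family was higher than in the nuclear fraction. Of 82 members, 19 were called higher (all genes, 9.63%) and 3 lower (all genes, 7.81%), with a median of 0.77 against -0.04 over all genes. These comprised 7 of 51 large-subunit members and 12 of 31 small-subunit members, with medians of 0.63 and 0.85. Both PFA libraries were above both nuclear ones for 40 members (all genes, 30%) and below them for 9 (all genes, 32.2%). The difference between the subunits was not tested.

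The largest change belonged to RPL8, a core protein of the large subunit. RPL8 stood at 179 and 325 CPM in the nuclear pair, 1119 and 1744 in the cytosolic pair, 519 and 373 in the native lamina pair and 943 and 688 in the PFA lamina pair. Its PFA libraries lay between the nuclear and the cytosolic pair and above the native pair, with a change over the nuclear fraction of 1.70 ± 0.39 (SE, adjusted p = 0.0156 by edgeR). RPS15 followed with 1.49 ± 0.33 (SE, adjusted p = 0.0135 by edgeR), at 132 and 145 CPM against 34.1 and 64.3 in the nuclear libraries, and RPL11 with 1.39 ± 0.39 (SE, adjusted p = 0.0306 by edgeR). RPS14 stood at 68.5 and 118 CPM in the nuclear pair, 391 and 509 in the cytosolic pair, 125 and 101 in the native lamina pair and 259 and 215 in the PFA lamina pair, and its PFA libraries did not overlap those of any other group. RPS14 changed by 1.35 ± 0.33 (SE, adjusted p = 0.0188 by edgeR). RPL4 and RPL3, called at the native lamina too, were also higher here, by 1.34 and 1.21, and the 2 comparisons share the nuclear libraries. RPSA, RPS6, RPLP0, RPS19 and RPS4X were higher by 1.31, 1.28, 1.27, 1.15 and 1.15. The call of RPLP0 was lost with DESeq2 size factors (1.22) and with upper-quartile factors (1.10), and that of RPS19 with upper-quartile factors (0.99). In the fit of the 4 compared libraries alone 0 members were called higher.

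The members called lower were the same 3 as in the cytosolic fraction, RPL36A (-2.78 ± 0.46, SE, adjusted p = 0.00690 by edgeR), RPL21 (-2.30 ± 0.56, SE, adjusted p = 0.0197 by edgeR) and RPS28 (-2.20 ± 0.66, SE, adjusted p = 0.0376 by edgeR), again against the shared nuclear libraries. RPS28 rests on 4 counts in PFA lamina replicate 2, and its call was lost without either nuclear library, either native library or PFA lamina replicate 1 (-2.08). That of RPL21 was lost without nuclear replicate 1 (-2.62), nuclear replicate 2 (-1.85) or PFA lamina replicate 1 (-1.70). The number of members called higher depended on single libraries. It was 49 without PFA lamina replicate 2, 2 without PFA lamina replicate 1, 0 without nuclear replicate 1 and 5 without nuclear replicate 2, and the other 4 omissions gave 10, 11, 18 and 18. Without PFA lamina replicate 1, the library lowest in the nuclear RNA markers, RPL11 stood at 0.74, RPLP0 at 0.71, RPSA at 0.73 and RPS6 at 0.75, all without a call. The call of RPS14 was lost without it too, at 1.22. Without nuclear replicate 1 the call of RPL8 was lost at 1.32, that of RPS15 at 1.10 and that of RPL36A at -2.83.

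No member passed the test between the PFA lamina and the cytosolic fraction in edgeR, where 0.527% of all genes were called higher and 0.145% lower. At an unadjusted p under 0.05 the count was 63 lower and 0 higher, and the share of all genes at that limit was not taken. The median was -0.998 against 0.08 over all genes, and both PFA libraries lay below both cytosolic ones for 74 of 82 members, which was the case for 23% of all genes. No member lay wholly above, against 25.2% of all genes. The lowest values belonged to RPL38 (-1.79 ± 0.39, SE, adjusted p = 0.0556 by edgeR) and RPS13 (-1.55 ± 0.38, SE, adjusted p = 0.0684 by edgeR), and the highest to RPL3L (0.70 ± 1.19, SE) and RPL36A (0.06 ± 0.47, SE). The members' median was -1.40 without PFA lamina replicate 1 (all genes, 0.05) and -0.77 without PFA lamina replicate 2 (all genes, 0). The DESeq2 Wald test over all 8 libraries called 38 members lower (all genes, 441 of 15396). In edgeR the fit without a filter on low counts called 45 members lower (all genes, 538 of 23649). The fit with the replicate number as a block called 6 (all genes, 125 of 16504).

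Between the 2 lamina preparations no member and none of the 16504 genes (0% in either direction) passed the edgeR test. At an unadjusted p under 0.05, 31 members were higher in the PFA preparation and 1 was lower, and the share of all genes at that limit was not taken. The DESeq2 Wald test called 13 of 70 members higher and 1 lower. Of all 6685 genes in that test, 73 were higher and 190 lower. The median change was 0.56 against 0.06 over all genes. Both PFA libraries lay above both native ones for 39 of 82 members and below them for 10, where 19.9% and 18.7% of all genes did so. RPS29, a zinc-binding protein of the small-subunit head, had 18.4 and 17.1 CPM at the native and 98.7 and 40.8 at the PFA lamina (1.99 ± 0.40, SE, adjusted p = 0.257 by edgeR). RPS21 (1.79 ± 0.38, SE, adjusted p = 0.257 by edgeR) and RPL39 (1.74 ± 0.41, SE, adjusted p = 0.285 by edgeR) came next. At the other end RPL36A had 30.5 and 36.2 CPM at the native and 5.73 and 17.3 at the PFA lamina (-1.61 ± 0.46, SE, adjusted p = 0.313 by edgeR), followed by RPS28 (-0.92) and RPL41 (-0.71). The PFA libraries did not overlap the native ones in any of these 6 genes. The members' median was 0.16 without PFA lamina replicate 1 (all genes, 0.04) and 0.85 without PFA lamina replicate 2 (all genes, -0.06).

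The subunits stood apart in this comparison more than in the others, as a description without a test. The median was 0.37 for the large and 0.89 for the small subunit. In all 4 pairings of 1 PFA with 1 native library the large-subunit median was the lower, by 0.26 to 0.72. Relative to each gene's own mean over the libraries, the large subunit exceeded the small by 0.09 and 0.36 in the native libraries, by 0.05 in both nuclear libraries, and by -0.14 and -0.02 in the cytosolic and -0.24 and -0.17 in the PFA libraries, where the negative sign means that the small subunit was the higher. The native libraries were thus the only pair wholly above the nuclear pair, and the PFA libraries were the lowest of all 8.

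**Figure D4:**
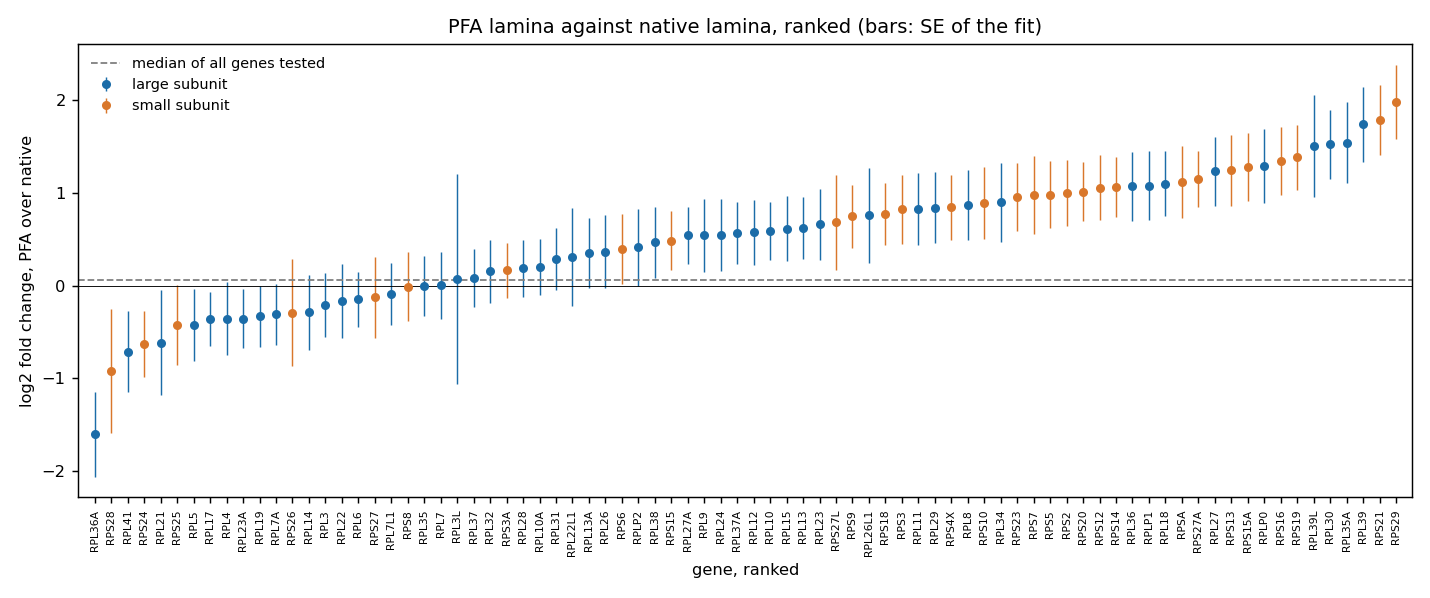
Log2 fold change of the PFA over the native lamina (vertical axis, bars are the SE of the fit) for 80 of 82 members ranked on the horizontal axis, large subunit in blue and small subunit in orange. RPS29, RPS21 and RPL39 have the highest values (1.99, 1.79 and 1.74), RPL36A has the lowest (-1.61), and no gene passed the test.

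Members share features beyond their function, and these were set beside the cytosolic to nuclear change. RefSeq names 1989 pseudogenes for the members, a median of 14 each, and 79 members have at least 1. The 12 members with at least 50, a limit chosen after the values were seen, had a median change of 1.14, and the other 70 had 1.87. Among the 12 were RPL36A, RPL21, RPS26, RPL17, RPL7 and RPS3A, which were lower or not called, and RPL7A, RPSA, RPS2, RPL31, RPL23A and RPL12, which were higher. At the PFA lamina over the nuclear fraction the 2 medians were 0.07 and 0.79, and at the native lamina 0.05 and 0.02. The median level of the 12 in the cytosolic fraction was 102 RPKM and that of the others 307. Across 82 members Spearman's rho between the number of pseudogenes and the change was -0.27, a description across genes that share their libraries.

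**Figure D5:**
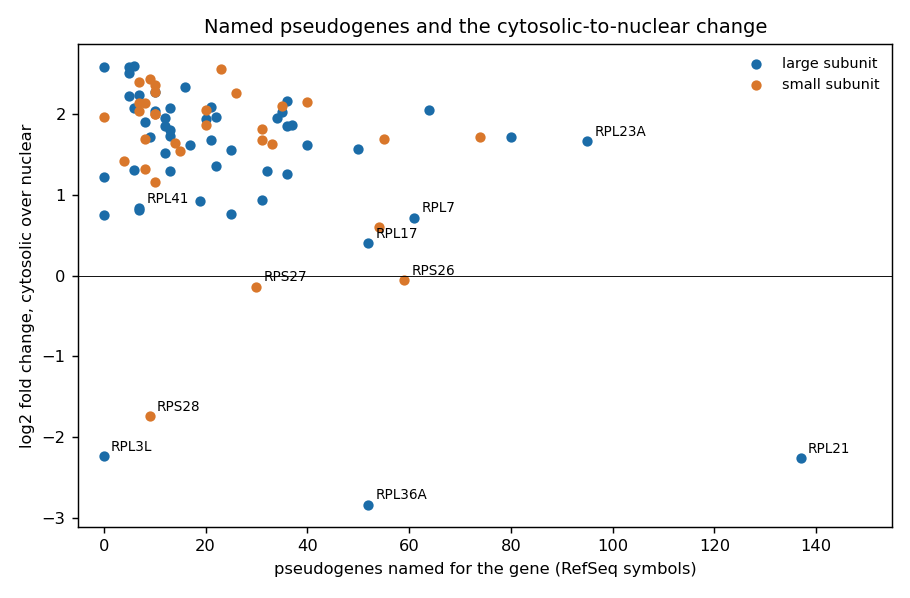
Number of pseudogenes named for each member in RefSeq (horizontal axis) and its log2 fold change of the cytosolic over the nuclear fraction (vertical axis), large subunit in blue and small subunit in orange. RPL21 and RPL36A combine many pseudogenes with negative values, RPS28 and RPL3L are negative with few, and RPL23A is high with 95.

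The same comparison was set beside the start of the transcript. The 46 canonical members with a TOP tract had a median cytosolic to nuclear change of 1.81 and the 16 without one 1.66. RPL36A and RPL21, with tracts of 10 and 6 bases, were on the nuclear side. RPL4, with none at the annotated start but an uncounted pyrimidine run a few bases after it, was 4.71-fold higher in the cytosolic fraction.

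Introns of 27 members, 19 of the large and 8 of the small subunit, host snoRNAs, the guides that direct chemical modification of ribosomal RNA. RPL4 carries SNORD16, SNORD18A, SNORD18B and SNORD18C, and RPL3 carries SNORD43, SNORD83A, SNORD83B and SNORD139. The split that follows was chosen after the values were seen. Members hosting box C/D snoRNAs alone (13) had a median change of 0.22 at the native lamina over the nuclear fraction, with 11 of 13 above 0. Those hosting box H/ACA snoRNAs alone (11), among them RPL39 with SNORA69, had -0.03, with 4 of 11 above 0. Between the PFA and the native lamina these medians were -0.01 and 0.59, and in the cytosolic over the nuclear fraction 1.72 and 1.70. The 55 members hosting none had 0.002 at the native lamina over the nuclear fraction, with 28 of 55 above 0. The 3 hosting both kinds had -0.21, with 1 of 3 above 0. Of all 82 members 44 lay above 0 there, as did 7671 of 16504 genes tested. For PFA over native, non-hosts had a median of 0.68 and hosts of both kinds -0.42. Non-hosts thus lay closer to the box H/ACA hosts than to the box C/D hosts in these lamina comparisons. Exons of RPL32, RPS3A and RPL17 overlap the rows of SNORA7A, SNORD73A and SNORD58B, so reads there count for the host as well. The part of those reads in these medians was not tested.

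Other gene groups linked to the ribosome gave a scale for the members. The 4 genes outside the symbol rule were all higher in the cytosolic fraction, with a median of 2.00: FAU encodes a fusion of a ubiquitin-like protein with a ribosomal protein, RACK1 binds the small subunit and RPL36AL is a paralogue of RPL36A. RPL36AL changed by 2.34, the opposite direction to RPL36A. Of 18 other TOP messenger RNAs, mostly translation factors, 17 were higher with a median of 1.69. Of 82 mitochondrial ribosomal protein genes 57 were higher and 6 lower (median 1.21), and of 88 oxidative phosphorylation genes 71 and 3 (median 1.61). Of 37 ribosome biogenesis factors 14 were higher and 1 lower, with a median of 0.61. Of 20 tested rows of ribosomal protein pseudogenes 5 were higher and 9 lower, with a median of -1.53.

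At the native lamina over the nuclear fraction the medians of the mitochondrial ribosomal, oxidative phosphorylation, other TOP and biogenesis genes were 0.20, -0.12, 0.45 and 0.28, beside 0.02 for the members. In the PFA lamina over the nuclear fraction they were 0.95, 0.78, 0.68 and 0.64, beside 0.77. Between the PFA and the native lamina they were 0.64, 0.81, 0.36 and 0.31, beside 0.56. The members thus lay within the range of these other lists in each of the 3 comparisons. In the PFA lamina over the nuclear fraction 31 of 82 mitochondrial ribosomal and 22 of 88 oxidative phosphorylation genes were called higher, beside 19 of 82 members.

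The position of the genes was read from domain lists of HCT116, a human colorectal carcinoma line, where the authors mapped DNA near the lamina in G1, S and G2. Of 86 members, 0 overlapped a domain by at least 1 base in G1 or S and 3 did in G2: RPS7, RPL38 and RPS4Y2. Among the 82 members with a count, 2 did in G2. Of 23647 genes with a count, 4.35% overlapped a domain in G1, 3.68% in S and 5.76% in G2. The lists come from another cell line, with 1 consensus list per stage, so these are positions and no test was made. The members lie on 22 chromosomes, with 12 on chromosome 19.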

How the data were processed

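Per the file headers, the authors ran featureCounts 1.5.2 on hg19 RefFlat and deposited raw counts of reads for each gene symbol. Strand was ignored, a read on several genes counted for each, and multi-mapped reads were left out by default. TopHat2 2.1.1, Bowtie2 2.3.2 and bedtools 2.26.0 are named in the submitters' processing notes. The header of cytosolic replicate 1 carries the output name of nuclear replicate 1, and its input names cytosolic replicate 1. It was used as labelled. The deposited domain lists hold other values, the start and end of 1 consensus list per stage on hg19, and the way replicates were combined is not stated.

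Genes passing filterByExpr by group (16504) entered a single quasi-likelihood fit of all 8 libraries in edgeR 4.0.16 (R 4.3.3), scaled by TMM, with a coefficient for each group and the replicate number left out. Its 6 contrasts were adjusted by Benjamini-Hochberg over all genes, and an adjusted p under 0.05 was a call. The script was tested on simulated counts with 200 genes changed between the cytosolic and nuclear groups. It recovered 15% of 2-fold and 97% of 4-fold changes, and called 0.044% of unchanged genes. A change near 2-fold without a call is therefore not shown to be absent. CPM and RPKM were computed with TMM-scaled library sizes and the exonic length in the files. The labels do not say that replicates came from separate cultures, so p-values measure only the spread between these samples. Upper limits for a count of 0 cover counting error only, because no molecular identifiers are named in the labels.

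Members, lists and tests were chosen with earlier results of these data known. Named genes were the 3 most raised and 3 most lowered called members per comparison (members not called where fewer were called), a list of stalk, 5S, subunit and paralogue genes, and the 5 highest and lowest levels. Members named for pseudogenes, snoRNAs or domains, and RPL36AL, were chosen once their values were known. The alternatives tried were scaling by DESeq2 size factors, by total counts or by upper quartiles, no filter, the replicate number as a block, DESeq2 1.42.0 with its Wald test, a fit of the 4 compared libraries alone, and omission of each library. Transcript starts and pseudogene names come from RefSeq on GRCh38.p14, where 69 members matched a start and all 86 a symbol. K562 and histone mark samples were not used. A few genes are not reported here by name and are left out of the figures that label each gene.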

Additional observations from a re-analysis of the deposited data

How the results depend on the processing

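With 2 libraries a group, a left-out library leaves an arm with 1 sample, which edgeR then takes to vary like the other groups. The number of calls over all genes moved with the library left out as well. Over these omissions the number of members higher ran from 48 to 72 for cytosolic over nuclear, 0 to 13 for native lamina over nuclear, 0 to 1 for native lamina over cytosolic, 0 to 49 for PFA lamina over nuclear and 0 to 20 for PFA over native lamina, and was 0 for PFA lamina over cytosolic. The number lower ran from 1 to 4, 0 to 6, 8 to 66, 0 to 4, 0 to 1 and 0 to 56 in the same order. The median change ran from 1.49 to 2.16, -0.27 to 0.41, -1.87 to -1.23, 0.23 to 1.10, 0.16 to 0.85 and -1.40 to -0.77. The large minus small subunit median ran from -0.15 to -0.026, 0.09 to 0.26, 0.12 to 0.49, -0.29 to -0.21, -0.68 to -0.26 and -0.18 to 0.02. For native lamina over nuclear (5 higher, 1 lower) total counts gave 14 higher, no filter 12 and 6 lower, the Wald test 10 and 4, the fit of 4 libraries 14 and 7, upper-quartile factors 2 lower and the replicate block 3 lower. For PFA lamina over nuclear (19 and 3) upper-quartile factors gave 11 higher, no filter 30, and the fit of 4 libraries 0 higher and 1 lower. For PFA lamina over cytosolic (0) total counts and upper-quartile factors gave 1 lower, the replicate block 6, the Wald test 38 and no filter 45. For PFA over native lamina (0) no filter gave 11 higher and 1 lower and the Wald test 13 and 1. Over all genes these gave 123 and 149 of 23649 and 73 and 190 of 6685. The cause was not tested. The other 150 values under these settings moved by at most 1.5 times (counts) or by less than the spread between libraries (medians and shares), although the native lamina over nuclear median changed sign with upper-quartile factors (-0.12) and DESeq2 size factors (-0.0012), and no called change reversed. Same-numbered samples deviated together with r from -0.0546 to 0.333, and no label says that numbers pair samples, so the replicate block is an alternative only. It changed no other count by over 1.5 times. The shallowest library, PFA lamina replicate 2, limits members such as RPS28 and RPL3L.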
